A study of Homo sapiens with 6 samples.

Results

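Three-site units are stretches of the genome in which exactly 3 poly(A) sites, the places where a transcript is cut and given its poly(A) tail, follow each other on one strand. Of 28114 units found in 6 libraries of HEK293 cells, 2295 (8.16%) held 3 sites, while 18323 held 1, 4645 held 2 and 2851 held 4 or more. The sites of a unit are called first, middle and last in the direction of transcription. Members were chosen from read ends pooled over the libraries at equal weight. Ends within 25 nt of the highest remaining position made a site, sites with a mean of at least 1 CPM (counts per 1000000 reads of a library) were kept, mitochondrial sites were left out, and sites with gaps of up to 5000 nt on the same strand were joined. Level and spacing therefore chose the units, and a change between libraries was not part of the rule. A unit is not a gene and can hold the ends of neighbouring transcripts. Gene annotation and genome sequence of the build of the files were not used here, so units are given by their hg19 positions and no sequence is printed.

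The libraries were made by A-seq, in which poly(A) RNA is fragmented and reverse transcription starts at the border between transcript and tail, so that a read marks a cleavage site. HEK293 is a human embryonic kidney cell line. Alkaline hydrolysis made the fragments of 4 libraries, which came from cells without siRNA and from cells given the control siRNA scrambled-A or siRNA against CF Im25 or CF Im59. RNase I made those of the other 2, from cells with scrambled-A and with CF Im68 siRNA. Cells given siRNA were harvested 3 days later, 1 siRNA was used per target, and each group was 1 library. Per the labels, knockdown was checked by Western blot. RNA of the targeted genes and marker genes of the cell line were not analysed here.

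Cleavage factor Im (CF Im) is part of the machinery that forms mRNA 3' ends. Its small subunit CF Im25 binds UGUA motifs in nascent RNA, usually upstream of the cleavage site, and each of its larger subunits CF Im59 and CF Im68 joins CF Im25 in the complex. Which of several sites is cut sets where the mRNA ends and, when the sites lie in the same terminal exon, how long its 3' UTR is. In a three-site unit the middle site is at the same time a downstream alternative to the first and an upstream alternative to the last, so gains and losses there have 2 possible partners.

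The members were spread evenly over the strands, with 1149 units on the plus and 1146 on the minus strand. They lay on 23 chromosomes, apart from 2 units on unplaced scaffolds. The gap from the first to the middle site had a median of 735 nt (interquartile range 164 to 1919.5) and the gap from the middle to the last a median of 765 nt (162 to 1945). The upstream gap was the shorter one in 1150 units and the longer one in 1144, so the middle site had no preferred side. First and last site were a median of 2068 nt apart, with an interquartile range of 889 to 3756.5 nt and a maximum of 9624 nt. In 213 units both gaps were under 200 nt, and in 452 both were at least 1000 nt. At least 1 gap was under 100 nt in 747 units (32.5%). Another unit on the same strand lay within 10000 nt of 614 units (26.8%), and in 154 (6.71%) a site of the opposite strand lay within 1000 nt downstream of the last site.

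All 3 sites were used in most members. Each site held at least 5% of the reads of its unit, in the mean over libraries, in 1713 units (74.6%), at least 10% in 1135 and at least 20% in 407. In 230 units (10.0%) a single site held 90% or more. The last site led in 924 units (40.3%), the middle in 788 (34.3%) and the first in 583 (25.4%), and their median shares were 30.7%, 26.7% and 20.8%. Reads were concentrated within a site: a median of 62.7% of the reads of first sites, 61.3% of middle sites and 61.5% of last sites fell on the highest nucleotide. That share was 90% or more at 1123 member sites (16.3%), against 21.6% of all nuclear sites.

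Sites near the limits of the rule are given as a description. The member site with the lowest mean level, at 47482011 on the minus strand of chromosome 16, had 1.00018 CPM. The highest site left out near a three-site unit, at 69467841 on the plus strand of chromosome 11, had 0.999889 CPM. Gaps reached 4994 nt inside members (a minus-strand unit of chromosome 14 with its first site at 35005689), and the smallest gap to a neighbouring unit was 5001 nt (chromosome 19, minus strand, 39797208). Because knockdown libraries entered the pool, a site could pass through them alone. In 521 units at least 1 site was under 1 CPM in the mean of the 3 control libraries, and this was the first site in 344 units, the middle in 188 and the last in 72. In the mean of the 3 knockdown libraries the order was the opposite, with 110 first, 169 middle and 232 last sites under 1 CPM. Counts are therefore also given for units built from the control libraries alone.

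Library totals ran from 5351980 reads (scrambled siRNA, RNase I) to 18183644 (no siRNA), and three-site units held 16.6% to 17.5% of the reads in nuclear units of each library. The median unit had 106 reads in the shallowest library and 349 in the deepest. Units with 50 reads or more numbered 1682 to 2236 per library. With 1 library per group no difference could be set against a spread between replicates and no p-value is given. A site was called changed by a rule of size, namely a change of 20 percentage points or more in its share of the reads of the unit, at least 50 reads in the unit in both libraries and a 95% Newcombe interval of the difference without 0. All intervals cover counting error only, those for shares of units are exact binomial, and units are not independent replicates. As control, each knockdown had the scrambled siRNA library fragmented in the same way. The CF Im25, CF Im59 and no siRNA comparisons share the alkaline scrambled library.

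Site use in the 1545 units with 50 reads or more in every library already separated the knockdowns. Among the alkaline libraries, the first site held on average 23.0% where no siRNA was given, 24.1% in the scrambled control, 29.7% for CF Im25 siRNA and 23.0% for CF Im59 siRNA. Among the RNase I libraries it held 24.7% in the scrambled control and 33.7% for CF Im68 siRNA. The last site held 43.8%, 42.1%, 36.3%, 44.1%, 40.5% and 31.3% in the same order. The CF Im25 and CF Im68 libraries were the highest for the first site and the lowest for the last. The middle site hardly differed between libraries, from 32.9% with CF Im59 siRNA to 35.0% with CF Im68 siRNA. Units led by their first site made up 20.4%, 22.7%, 27.5%, 20.3%, 22.9% and 32.3% in that order of libraries, and those led by their last site 45.4%, 42.5%, 37.3%, 45.4%, 41.4% and 32.0%. After CF Im68 siRNA the first site led more units than the last, which was so in no other library.

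**Figure D1:**
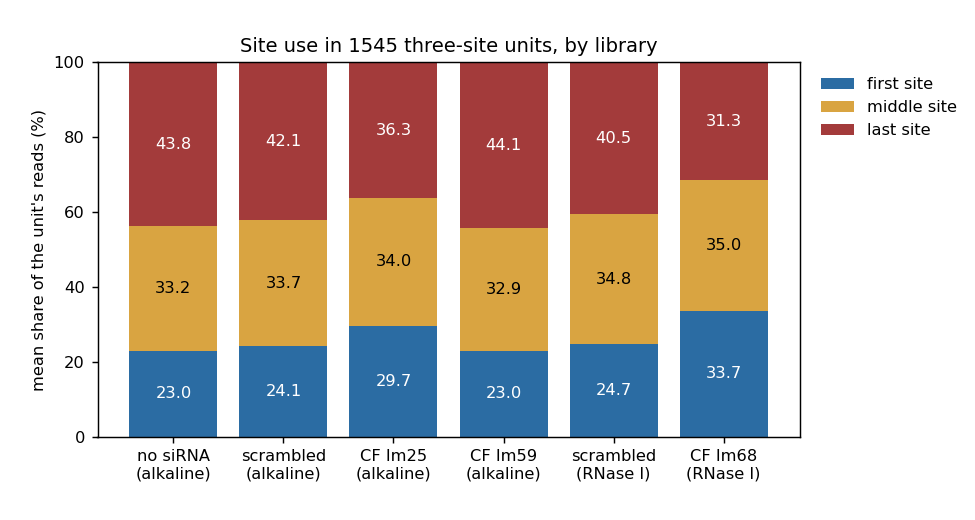
Mean share of the reads of a unit at its first, middle and last site (percent, stacked bars) in each of the 6 libraries, over the 1545 three-site units with 50 reads or more in every library. The first-site share is 29.7% with CF Im25 siRNA and 33.7% with CF Im68 siRNA, against 23.0% to 24.7% in the other 4 libraries, while the middle share stays between 32.9% and 35.0%.

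Without a targeting siRNA few units differed. Of 2092 units tested for no siRNA against scrambled siRNA, the first site gained in 19 (0.908%, interval 0.548 to 1.41) and lost in 29, beside 0.794% and 1.39% of all units with 2 or more sites. The middle site gained in 15 and lost in 35, beside 0.399% and 0.59% of all interior sites, and the last gained in 47 and lost in 20, beside 1.89% and 0.855% of all last sites. Mean changes were -0.91, -0.89 and 1.80 points at the first, middle and last site, and 111 units (5.31%) had any call.

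After CF Im25 siRNA the share of reads fell at the last site and rose at the first, while the middle site gained in about as many units as it lost. Of 2008 units tested, the first site gained in 277 (13.8%, interval 12.3 to 15.4) and lost in 33 (1.64%). Over all units with 2 or more sites the calls were 12.5% and 1.69%, so the first sites of three-site units were close to the background. The last site lost in 280 units (13.9%, interval 12.5 to 15.5) and gained in 42, beside 11.8% and 1.92% of all units. At the middle site 100 gains and 111 losses were called, or 4.98% and 5.53%, beside 4.16% and 4.27% of all interior sites. The mean change was 6.11 points at the first site, 0.00332 at the middle and -6.11 at the last, with SDs over units of 13.7, 12.4 and 13.8 points. The middle share was higher than in the control in 50.7% of units, the first in 66.3% and the last in 32.3%. Changes of 40 points or more were 60 gains and 1 loss at the first site, 16 and 12 at the middle, and 2 and 53 at the last.

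**Figure D2:**
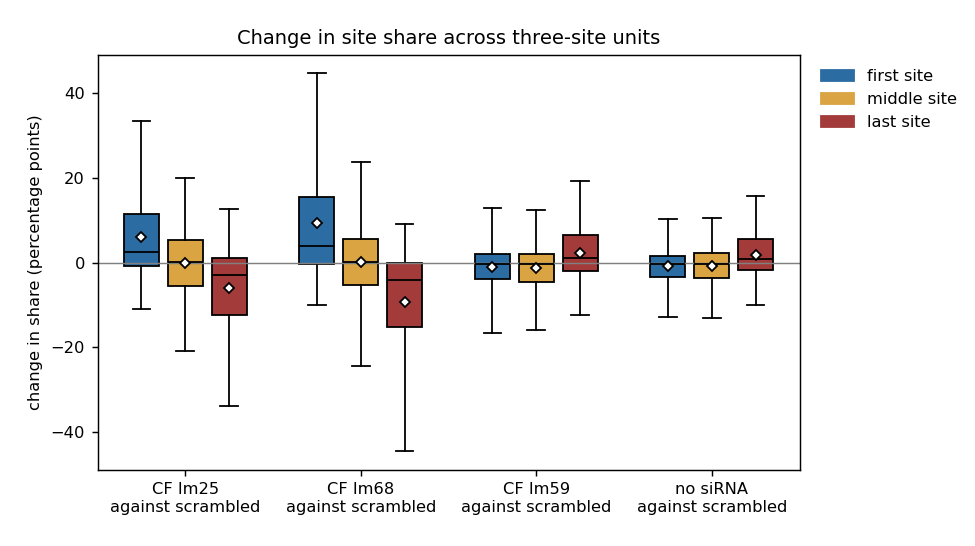
Change in a site's share of the reads of its unit (percentage points, knockdown or no siRNA minus scrambled siRNA) for the first, middle and last site of three-site units tested in 4 comparisons. Boxes span the interquartile range with the median as a line, whiskers run from the 5th to the 95th percentile over units, and diamonds are means. Means and medians lie above 0 at first sites and below 0 at last sites after CF Im25 and CF Im68 siRNA, with mean changes of 6.11 and 9.38 points at the first site, although first-site boxes reach below 0 and 66.3% of first sites are above 0 for CF Im25 siRNA. The middle boxes are centred near 0.

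A pattern of calls over the 3 sites describes which shares rose and fell together. Any call was made in 505 units (25.1%) after CF Im25 siRNA. The commonest was a first-site gain with a last-site loss and no call at the middle, in 133 units. A first-site gain with a middle-site loss followed in 67 units, and a middle-site gain with a last-site loss in 62. Both upstream sites gained with a last-site loss in 6 units, and the first gained with a loss at both others in 10. Patterns in the other direction were rarer: a middle loss with a last gain in 17 units, a first loss with a last gain in 13 and a first loss with a middle gain in 12.

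The units described next were ranked among called units with 100 reads or more in both libraries, which for CF Im25 and CF Im59 siRNA also had to change by 10 points or more in the same direction against no siRNA, and "largest" is meant within these limits. The largest first-site rise after CF Im25 siRNA lay on the minus strand of chromosome 1, with sites at 54233394, 54231888 and 54231158. Its first site held 26.2% without siRNA, 19.4% in the alkaline scrambled library, 87.1% for CF Im25 siRNA, 32.7% for CF Im59 siRNA, 3.80% in the RNase I scrambled library, and 88.9% for CF Im68 siRNA. Both the CF Im25 and the CF Im68 library stood far above all others, although the scrambled libraries differed between the fragmentation methods. The change was 67.7 points after CF Im25 siRNA (interval 59.5 to 74.2, 155 and 279 reads) and 85.1 points after CF Im68 siRNA (82.4 to 87.3, 921 and 837 reads). The last site gave up most of it, falling from 60.6% to 9.32% after CF Im25 siRNA and from 94.6% to 10.2% after CF Im68 siRNA.

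In the next unit the first site took its share from both others. It lay on the plus strand of chromosome 10, at 65380730, 65384336 and 65384887, and its first site held 26.7%, 25.8%, 93.4%, 17.1%, 45.5% and 98.5% (no siRNA, scrambled, CF Im25, CF Im59, scrambled with RNase I, CF Im68, an order kept below). The middle site held 42.1%, 60%, 5.43%, 57.4%, 22.3% and 1.20%. The first site was highest in the CF Im25 and CF Im68 libraries and the middle lowest there. The changes after CF Im25 siRNA were 67.6 points at the first site (interval 59.8 to 74.0), -54.6 at the middle (-62.1 to -46.5) and -13.0 at the last. Per 1000000 reads of nuclear units, the first site went from 4.61 to 64.0 and the middle from 10.7 to 3.72.

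A plus-strand unit of chromosome 18, at 12985718, 12987527 and 12987660, exchanged its main site. The first site held 15.97%, 15.2%, 80.2%, 16.8%, 32.4% and 86.5%, and the middle site 75.9%, 76.7%, 16.6%, 78.2%, 62.4% and 12.2%. The middle site led in all libraries but those of CF Im25 and CF Im68 siRNA, where the first led. Its fall of -60.1 points after CF Im25 siRNA (interval -66.3 to -52.5) was the largest of the 57 middle-site falls within these limits. The minus-strand unit of chromosome 4 at 52890104, 52889878 and 52886872 differed between the CF Im25 and CF Im68 comparisons in the taker. Its first site held 21.7%, 24.7%, 78.7%, 32.2%, 4.83% and 40.5% and its middle site 3.99%, 5.07%, 6.11%, 3.76%, 15.2% and 49.8%. After CF Im25 siRNA only the first site rose past 20 points there (54.0, interval 49.2 to 58.3), whereas after CF Im68 siRNA the first and middle sites together took over from the last, which went from 79.9% to 9.73%. The scrambled libraries of these comparisons already differed at both sites, so siRNA target and preparation cannot be told apart.

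In 83 of the 100 units with a middle-site gain after CF Im25 siRNA the last site gave up more than the first, and in 17 the first did. On chromosome 5, plus strand, sites lay at 50138128, 50138170 and 50142352, with the middle only 42 nt after the first and 4182 nt before the last. The middle site held 17.3%, 24.0%, 79.1%, 20%, 50% and 84.1%, and the last 79.5%, 74.0%, 14.2%, 79.1%, 33.9% and 0.862%. CF Im25 and CF Im68 siRNA gave the highest middle and the lowest last shares, with middle changes of 55.1 points (interval 45.9 to 62.7) and 34.1 points. In the minus-strand unit of chromosome X at 133679308, 133678459 and 133677368 the gaps were more even, 849 and 1091 nt. Its middle site held 21.3%, 15.5%, 68.9%, 23.2%, 41.3% and 77.3%, a rise of 53.4 points after CF Im25 siRNA (interval 45.7 to 59.9) and of 36.0 after CF Im68 siRNA. Its first site stayed between 2.17% and 11.7% in every library, so the exchange was between the middle and the last.

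The last site rose most in a minus-strand unit of chromosome 1 at 78414343, 78414090 and 78409741, where it held 11.7%, 5.70%, 50.2%, 20.8%, 4.78% and 14.96%. CF Im25 siRNA gave the highest value, 44.5 points above scrambled siRNA (interval 37.7 to 51.2). The first site of that unit had 0 reads in all 4 alkaline libraries and 61 and 63 in the RNase I ones, 96.5% of them at a single nucleotide, so only the middle and last sites were in use in the CF Im25 comparison. A plus-strand unit of chromosome 16 at 22092815, 22095971 and 22098838 had a last-site rise after both siRNAs. Its last site held 37.0%, 22.1%, 60.7%, 19.3%, 23.6% and 73.7%, and the changes were 38.6 points (interval 32.9 to 44.0) after CF Im25 siRNA and 50.05 points (43.4 to 55.9) after CF Im68 siRNA. The share fell at the middle site after CF Im25 siRNA, from 65.6% to 31.2%, and mainly at the first after CF Im68 siRNA, from 53.5% to 18.8%. In the alkaline scrambled library the first site held only 12.3%, so siRNA target and preparation cannot be told apart in this difference. At that first site 97.6% of reads fell on a single nucleotide.

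**Figure D3:**
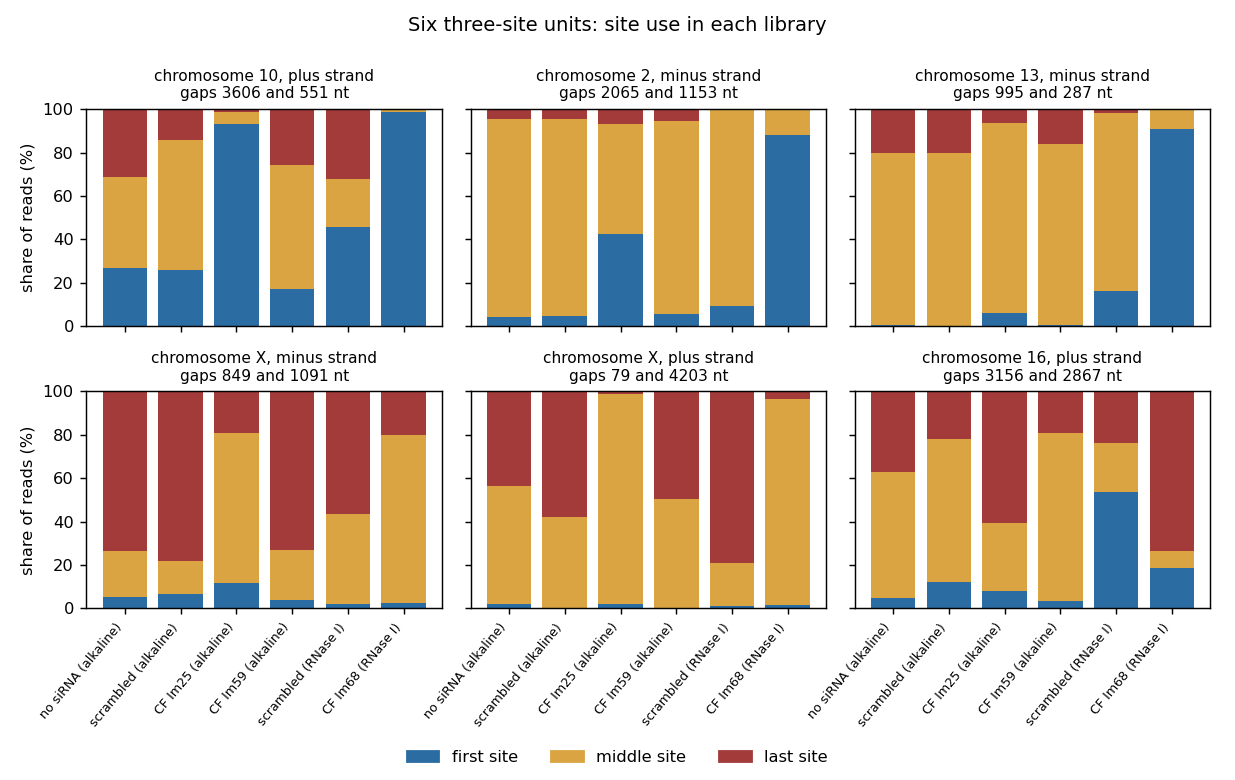
Share of the reads of a unit (percent, stacked bars) at the first, middle and last site in each library, for 6 three-site units named by chromosome, strand and the gaps between sites in nt. In the upper row the first site takes over after CF Im68 siRNA (98.5%, 88.1% and 91.0%), in the lower row the middle site of both chromosome X units rises after CF Im25 and CF Im68 siRNA, and in the chromosome 16 unit the last site rises after both.

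CF Im68 siRNA gave the same order of sites with more calls, against a shallower control. Of 1656 units tested, the first site gained in 324 (19.6%, interval 17.7 to 21.6) and lost in 15 (0.906%), beside 17.5% and 1.21% of all units with 2 or more sites. The last site lost in 316 units (19.1%, interval 17.2 to 21.1) and gained in 15, beside 16.6% and 0.948%. The middle site gained in 118 (7.13%) and lost in 122 (7.37%), beside 6.29% and 6.36% of all interior sites. Mean changes were 9.38 points at the first site, 0.0265 at the middle and -9.40 at the last, with SDs over units of 17.2, 14.6 and 16.9 points. Changes of 40 points or more were 115 gains and 1 loss at the first site and 3 gains and 105 losses at the last. Any call was made in 503 units (30.4%), of which 156 had a first gain with a last loss, 91 a first gain with a middle loss and 75 a middle gain with a last loss.

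The scrambled siRNA libraries also differed from each other. Between the one made with RNase I and the one made by alkaline hydrolysis, 822 of 1612 units (51.0%) had any call. Each is 1 library from its own preparation, so fragmentation and preparation cannot be told apart there. The first site was higher with RNase I in 238 units and lower in 215, beside 13.1% and 11.3% of all units, the middle higher in 282 and lower in 259, beside 10.9% and 10.6% of interior sites, and the last higher in 249 and lower in 283, beside 13.5% and 15.3%. Mean changes there were 0.31, 1.16 and -1.47 points, so the calls went both ways at every site. With the alkaline scrambled library as control, CF Im68 siRNA gave 608 first-site, 390 middle-site and 171 last-site gains. These counts also hold the difference between the preparations. The share over all units under that control is not given, so they are not read as an effect of the siRNA. No control pair of the same method was sequenced with RNase I.

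Several middle sites were nearly abandoned after CF Im68 siRNA. In the minus-strand unit of chromosome 2 at 44547968, 44545903 and 44544750 the middle site held 91.4%, 90.8%, 50.7%, 89.1%, 90.04% and 11.9%, and the first 4.25%, 4.52%, 42.4%, 5.50%, 9.52% and 88.1%. The CF Im25 library was intermediate and the CF Im68 library reversed the order. The middle change was -78.1 points after CF Im68 siRNA (interval -81.4 to -74.1, 462 and 706 reads) and -40.1 after CF Im25 siRNA. Per 1000000 reads of nuclear units the middle site went from 88.7 to 7.67 and the first from 9.39 to 56.8.

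A minus-strand unit of chromosome 13 at 39585285, 39584290 and 39584003 was called after CF Im68 siRNA but not after CF Im25 siRNA. Its middle site held 79.3%, 79.8%, 87.4%, 83.2%, 82.3% and 9%, and the first site reached 91.0% with CF Im68 siRNA but 6.29% with CF Im25 siRNA. The middle change was -73.3 points (interval -78.4 to -66.9) after CF Im68 siRNA and 7.62 points after CF Im25 siRNA. In CPM of the library totals, the first site had 0.275, 0.103, 1.03, 0.316, 7.47 and 21.0 in the order of libraries above. It was thus near the floor in every alkaline library. The comparisons also differ in preparation, so siRNA target and preparation cannot be told apart here. The plus-strand unit of chromosome 12 at 27475654, 27478021 and 27478889 held 28.1%, 44.4%, 90.3%, 40.4%, 8.33% and 92.5% at the first site. Both knockdowns stood above 90% and no other library above 44.4%, with a change of 84.2 points after CF Im68 siRNA (interval 79.0 to 87.8).

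The 4 largest middle-site rises after CF Im68 siRNA were in units with a first site 59 to 128 nt upstream, which in the control libraries held at most 8.28% of the reads. On the plus strand of chromosome X, with sites at 150573554, 150573633 and 150577836, the middle held 54.3%, 42.3%, 96.4%, 50.2%, 19.9% and 95.04%. Both knockdown libraries were above 90%, and the change was 75.2 points after CF Im68 siRNA (interval 71.6 to 78.4, 549 and 3430 reads). Its middle level went from 23.3 to 298 per 1000000 reads of nuclear units. The first site of this unit averaged 0.491 CPM of the library totals in the 3 control libraries, against 1.97 and 4.08 CPM with CF Im25 and CF Im68 siRNA, so it met the 1 CPM limit only through the knockdown libraries. A minus-strand unit of chromosome 3 at 149458663, 149458535 and 149456264 held 18.3%, 25.5%, 55.9%, 14.01%, 7.67% and 66.8% at its middle site, a change of 59.1 points (52.9 to 64.6). The deepest of the named units, on the minus strand of chromosome 2 at 38972095, 38972036 and 38970747, had 1631 to 9116 reads. Its middle site held 48.1%, 39.0%, 75.2%, 29.0%, 43.4% and 93.3%, and its last 51.1%, 59.9%, 20.5%, 69.6%, 56.0% and 2.82%. There the middle level per 1000000 reads of nuclear units was 155 and 139 in the RNase I libraries, while the last fell from 200 to 4.198, so the higher middle share came with a lower last site and no higher middle level.

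CF Im59 siRNA gave few calls, and these leaned to the last site. Of 2048 units tested, the first site gained in 35 (1.71%) and lost in 64 (3.12%), beside 1.46% and 2.64% of all units. The middle gained in 32 and lost in 58, beside 0.83% and 1.28% of interior sites, and the last gained in 93 (4.54%, interval 3.68 to 5.53) and lost in 36, beside 3.61% and 1.55%. Mean changes were -0.99, -1.18 and 2.17 points, next to -0.91, -0.89 and 1.80 for no siRNA against the same control. Against the no siRNA library, last-site gains fell from 93 to 33 and first-site gains from 35 to 21. The largest last-site rise, in the minus-strand unit of chromosome 9 at 123526513, 123526451 and 123521482, shows this: the last site held 62.1%, 32.98%, 29.3%, 79.5%, 58.0% and 7.87%. The change with CF Im59 siRNA was 46.5 points against scrambled siRNA (interval 37.1 to 54.6) and 17.4 points against no siRNA. After CF Im68 siRNA the same site changed by -50.1 points.

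Of the 14 CF Im59 changes chosen for description, 5 were 20 points or more against no siRNA as well and 9 were smaller. Among the 4 first-site rises, those of minus-strand units of chromosomes 15 and 16 (first sites at 75212619 and 67978231) kept 21.4 and 23.3 points, and the other two fell below 20. In a plus-strand unit of chromosome 3 at 196670414, 196670885 and 196671814 the first site held 77.1%, 47.1%, 94.8%, 90.9%, 96.2% and 97.4%, so the alkaline scrambled library was the lowest of all 6. The change was 43.7 points against scrambled siRNA (interval 36.9 to 49.8) and 13.7 against no siRNA. The middle site at 8043790 in a minus-strand unit of chromosome 17 (first site 8048660, last 8040093) held 47.8%, 17.6%, 53.8%, 61.6%, 88.7% and 94.6%. It was also lowest in that control, with 44.0 points against scrambled and 13.8 against no siRNA.

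Calls at both pairs of neighbours in a unit were rare. For each pair of neighbours the upstream share of the reads at the pair was called by the same rule, with 50 reads over the pair. Both pairs count the reads of the middle site, so their changes are coupled. With CF Im25 siRNA the first-middle pair moved upstream in 158 of 1379 units (11.5%) and downstream in 37, and the middle-last pair upstream in 149 of 1598 (9.32%) and downstream in 36. Over all neighbouring pairs of all units the calls were 9.73% upstream and 2.99% downstream. In the 1115 units with both pairs tested, both moved upstream in 4, the first-middle pair alone in 109 and the middle-last pair alone in 82. Opposite calls were made in 7 units with the first-middle pair upstream and in 8 with it downstream. Whatever their size, both changes were upstream in 354 of the 1115 units (31.7%) and both downstream in 130 (11.7%). The pairs of the CF Im68 comparison moved upstream in 158 of 1081 and 190 of 1268 (14.6% and 14.98%, beside 12.8% of all pairs) and downstream in 26 and 18 (beside 2.75%). Both moved upstream in 10 of 825 units, the first-middle pair alone in 107 and the middle-last pair alone in 79. Here 4 units had opposite calls with the first-middle pair upstream and 10 with it downstream. Both changes of any size were upstream in 325 of the 825 (39.4%) and downstream in 75 (9.09%). With CF Im59 siRNA 33 and 27 pairs moved upstream and 38 and 73 downstream, beside 2.16% and 3.3% of all pairs, and for no siRNA 28 and 14 upstream and 19 and 42 downstream, beside 1.22% and 1.77%.

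Where the last site lost after CF Im25 or CF Im68 siRNA, the first site was the larger gainer more often than the middle. After CF Im25 siRNA the first rose more in 179 of the 280 units with a last-site loss (63.9%), and after CF Im68 siRNA in 208 of 316 (65.8%). For no siRNA the share was alike but rested on few units, at 13 of 20 last-site losses (65%). It was 17 of 36 for CF Im59 siRNA and 111 of 283 (39.2%) between the scrambled libraries, RNase I against alkaline. Median changes in these units were 21.7 points at the first and 7.88 at the middle site after CF Im25 siRNA, and 24.3 and 8.68 after CF Im68 siRNA. Where the middle lost, the first rose more than the last in 85 of 111 and 112 of 122 units. Where the middle gained, the last gave more than the first in 83 of 100 and 104 of 118 units. These 2 counts were 11 of 35 and 5 of 15 for no siRNA, and 16 of 58 and 19 of 32 for CF Im59 siRNA. Between the scrambled libraries they were 119 of 259 and 173 of 282. In the CF Im25 and CF Im68 comparisons, a called middle loss thus mostly went with a rise of the first share. A called middle gain mostly went with a fall of the last share. Shares sum to 100%, so this does not show reads passing from one site to another.

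The leading site changed accordingly. The site with most reads moved upstream in 255 of 2008 units (12.7%) and downstream in 73 (3.64%) after CF Im25 siRNA, with 102 units going from last to first, 80 from last to middle and 73 from middle to first. For CF Im68 siRNA it moved upstream in 257 of 1656 (15.5%) and downstream in 39 (2.36%), with 116, 65 and 76 units on these routes. With CF Im59 siRNA 83 units moved upstream and 133 downstream, and for no siRNA 67 and 135. The read-weighted mean end of the unit moved upstream by 500 nt or more in 245 units (12.2%) after CF Im25 siRNA and downstream by as much in 57. For CF Im68 siRNA these were 268 (16.2%) and 32, with CF Im59 siRNA 62 and 117, and without siRNA 44 and 86. Its mean change was -138 nt, -215 nt, 46.9 nt and 38.1 nt in these 4 comparisons, and its median change -38.4, -54.4, 9.31 and 7.43 nt. For the leading site and the mean end, shares over all units are not given. These counts are thus not read as a trait of three-site units.

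The gains of the middle site went with its spacing from the other sites. Units were split by a close gap of under 200 nt and a wide gap of 500 nt or more. Where the middle lay close to the first and far from the last, the middle gained in 31 of 294 units (10.5%, interval 7.28 to 14.6) after CF Im25 siRNA. Where it lay close to the last and far from the first, it gained in 10 of 309 (3.24%, interval 1.56 to 5.87). After CF Im68 siRNA the numbers were 37 of 267 (13.9%, interval 9.95 to 18.6) and 5 of 273 (1.83%, interval 0.597 to 4.22). Mean middle changes were 3.95 and 0.35 points for CF Im25 siRNA, 5.30 and -2.86 for CF Im68 siRNA, and -0.29 and -0.09 for no siRNA. The 2 classes differed in the control as well, with a mean middle share of 38.6% and 24.0% in the alkaline scrambled library and 35.8% and 31.3% in the RNase I one. Units built from the control libraries alone gave fewer middle gains near the first, 18 of 268 (6.72%) after CF Im25 siRNA and 22 of 259 (8.49%) after CF Im68 siRNA, beside 9 of 300 (3%) and 4 of 270 (1.48%) near the last. The order of the classes was the same there, but the counts near the first were lower by more than 1.5 times. This alternative was added after seeing the data.

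Last-site losses were also commonest where the first and middle lay close together, in 64 of 294 units (21.8%) after CF Im25 siRNA and 84 of 267 (31.5%) after CF Im68 siRNA, with mean last-site changes of -9.51 and -15.5 points. In these units the gain was shared: the first rose more in 30 and the middle in 34 of the CF Im25 losses, and 47 and 37 of the CF Im68 losses. Where middle and last lay close together instead, the first was the larger gainer in 31 units and the middle in 7 after CF Im25 siRNA, and in 29 and 6 after CF Im68 siRNA. The split differed by the site that led in a control library outside the comparison, and was widest in units led by the last. For CF Im25 siRNA, with no siRNA as that library, the middle gained in 23 of 120 such units when close to the first (19.2%) and in 5 of 174 when close to the last. For CF Im68 siRNA, with the alkaline scrambled library, it gained in 24 of 95 (25.3%) and 1 of 144. In units led by the middle the counts were 8 of 112 and 2 of 70 for CF Im25 siRNA, and 11 of 105 and 2 of 65 for CF Im68 siRNA. Units led by the first did not show it, with 0 of 62 and 3 of 65 for CF Im25 siRNA and 2 of 55 and 2 of 54 for CF Im68 siRNA. All counts by leading site come from the main units, whose sites were called with the knockdown libraries in the pool. For units of the control libraries alone, and over all units, this split is not given, so its width was not checked there.

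Compact units changed least. With both gaps under 200 nt the first site gained in 9 of 196 units (4.59%) after CF Im25 siRNA and 9 of 179 (5.03%) after CF Im68 siRNA. With both gaps of 500 nt or more it gained in 106 of 679 (15.6%) and 130 of 514 (25.3%), and there the middle site lost in 59 (8.69%) and 66 (12.8%) units. By span, first-site gains after CF Im25 siRNA made up 8.02% under 500 nt, 12.5% from 500, 17.8% from 1000, 15.2% from 2000 and 13.0% from 4000 nt, and after CF Im68 siRNA 6.23%, 16.8%, 27.5%, 24.0% and 17.8%. The share of gains was thus highest from 1000 to under 2000 nt in both, but its interval overlapped that of the class from 2000 nt. These were 14.3 to 21.7 and 12.4 to 18.4 for CF Im25 siRNA, and 23.0 to 32.4 and 20.3 to 28.1 for CF Im68 siRNA. Across all tested units the rank correlation of the first-site change with span was close to 0 (Spearman's rho -0.0037 over 2008 units and -0.012 over 1656). It measures the change of every unit and not the share of called gains.

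**Figure D4:**
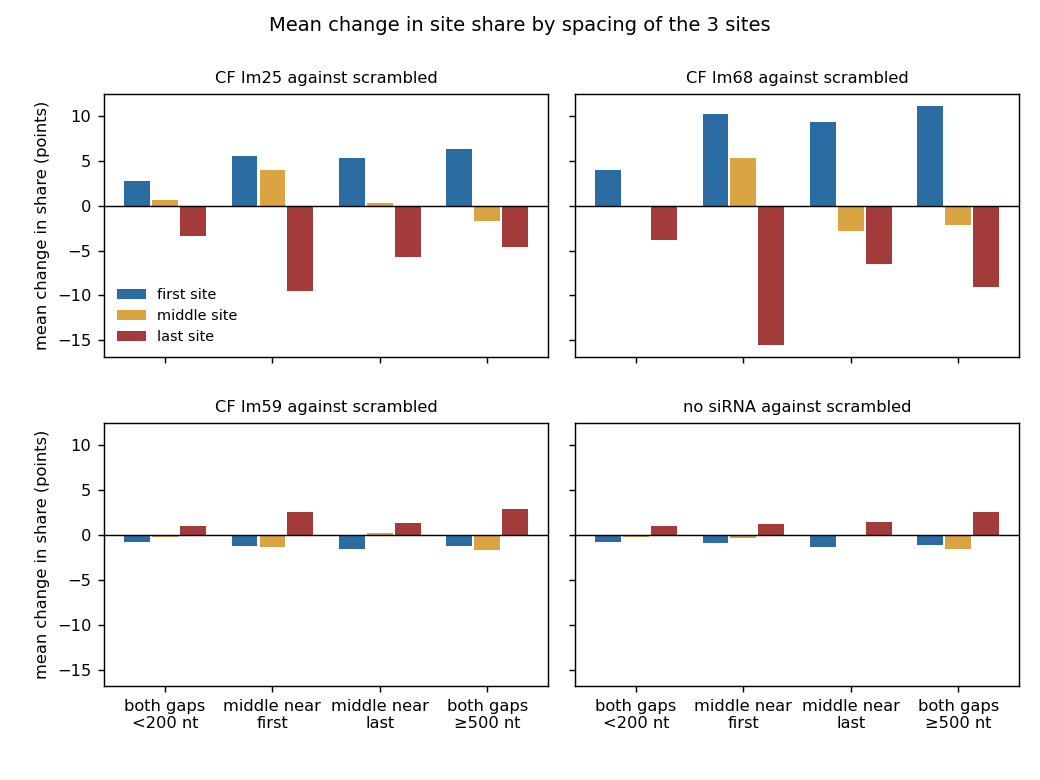
Mean change in share (percentage points, bars) of the first, middle and last site in 4 spacing classes of three-site units and 4 comparisons with scrambled siRNA. "Near" means a gap under 200 nt with the other gap 500 nt or more. The middle bar is above 0 for units whose middle lies near the first (3.95 points after CF Im25 and 5.30 after CF Im68 siRNA), and for CF Im68 siRNA it is -2.86 when the middle lies near the last.

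First-site gains were about as frequent whichever site had led beforehand. By the leading site in the no siRNA library, the first gained after CF Im25 siRNA in 15.6% of 435 units led by the first, 12.2% of 673 led by the middle and 14.1% of 898 led by the last. By the alkaline scrambled library, CF Im68 siRNA gave 20.5% of 356, 17.0% of 558 and 19.8% of 676. Middle-site gains were more frequent in units led by the last site, at 6.57% (CF Im25 siRNA) and 10.8% (CF Im68 siRNA), than in units led by the middle (4.31% and 4.84%) or the first (2.76% and 3.37%). Middle-site losses were called in 11.4% of units led by the middle after CF Im25 siRNA and in 10.8% after CF Im68 siRNA.

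Shares of a unit sum to 100%, so levels were read beside them, as reads per 1000000 reads of nuclear units. In the 277 units with a first-site gain after CF Im25 siRNA the median first-site level went from 3.46 to 10.1 and the median last-site level from 5.76 to 2.79. The first site was at least 2-fold higher in 211 of them (76.2%), and the last at least 2-fold lower in 146 (52.7%). In the 324 units of CF Im68 siRNA the medians went from 3.84 to 14.7 and from 8.43 to 2.37, with a 2-fold higher first site in 248 (76.5%) and a 2-fold lower last site in 236 (72.8%). Over all tested units a 2-fold higher first site was seen in 32.7% and 33.9%, and a 2-fold lower last site in 26.6% and 38.0%. Higher first sites and lower last sites thus both accompanied the called gains.

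Total reads of three-site units moved in both directions. Totals were scaled to the reads in nuclear units, and a call needed a ratio of 2-fold, 50 reads or more in either library and an exact 95% interval of the ratio without 1. For CF Im25 siRNA, 209 of 2220 units rose past the limit and 209 fell below it (9.41% each), beside 13.1% and 12.1% of all units. The numbers for CF Im68 siRNA were 176 higher and 183 lower of 2126, beside 11.2% and 6.96%. For CF Im59 siRNA they were 109 and 195 of 2211, beside 8.61% and 11.1%, and for no siRNA 54 and 59 of 2243, beside 4.29% and 4.3%. Scaling by the median of ratios raised the median log2 ratio of all units from 0.07 to 0.24 for CF Im68 siRNA and turned the split there to 253 higher and 124 lower. For no siRNA the median of all units went from -0.04 to 0.07 and the split to 76 and 43, and for CF Im59 siRNA the split went to 139 and 148. No direction of total reads is therefore given for these 3 comparisons. In these bulk libraries fewer cells that use a unit and less RNA per cell cannot be told apart.

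Units with 2 sites and with 4 or more put the first-site counts in context. After CF Im25 siRNA the first site gained in 10.99% of 2949 two-site units (interval 9.88 to 12.2), 13.8% of three-site units and 13.0% of 2813 larger ones (11.8 to 14.3). After CF Im68 siRNA the values were 13.7% of 2216 (12.3 to 15.2), 19.6% and 19.5% of 2667 (18.0 to 21.0). Three-site units were nearer to the larger units than to the two-site ones, and the differences were not tested, since each group was 1 library.

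CF Im25 and CF Im68 siRNA were compared with different controls and share no library, so their calls on the same units can be set side by side. The sites were called on a pool that held both knockdown libraries, and 344 first sites were under 1 CPM in the control mean. Sites that passed through both knockdowns could favour shared gains. The overlap in units of the control libraries alone and over all units is not given. Of 1553 units tested in both, the first site gained in 186 after CF Im25 siRNA and in 290 after CF Im68 siRNA. It gained in 112 after both, which is 60.2% of the former and 38.6% of the latter. Last-site losses numbered 194 and 288, with 102 shared (52.6% and 35.4%). Middle-site gains were shared by 27 units (39.7% of 68 and 24.5% of 110) and middle-site losses by 30 (46.2% of 65 and 27.3% of 110). Calls in the other direction were few and little shared, with 1 first-site loss in both (of 20 and 10) and 2 last-site gains (of 20 and 9). Of the first-site gains after CF Im25 siRNA, 2 were losses after CF Im68 siRNA. Of the middle-site gains after CF Im25 siRNA, 1 was a loss after CF Im68 siRNA, and no middle-site loss turned into a gain. Across the 1553 units Pearson's r of the changes was 0.518 at the first site, 0.464 at the middle and 0.495 at the last, with Spearman's rho of 0.479, 0.374 and 0.449. The points share their sites and their depth over units, and the shares of a unit depend on each other. Units with a first-site gain after CF Im25 siRNA had a median first-site change of 25.4 points after CF Im68 siRNA, and 95.2% of them were above 0, against 71.9% of all 1553.

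Among shared first-site gains the 3 units with most reads lay on chromosomes 5, 3 and 17. The minus-strand unit of chromosome 5 at 179289743, 179289073 and 179286589 held 36.0%, 31.6%, 55.8%, 28.8%, 40.8% and 63.9% at its first site. The exchange was with the middle, which held 63.3%, 66.1%, 42.5%, 69.3%, 57.2% and 35.6%, so both knockdowns moved the first-middle choice. The changes were 24.3 points (interval 20.7 to 27.7) and 23.1 points. On the plus strand of chromosome 3, at 160151697, 160151763 and 160152740, the first site held 51.1%, 46.6%, 74.2%, 55.6%, 3.93% and 29.99%. The first-site changes were 27.7 and 26.1 points, from a far lower RNase I baseline. The other sites of that unit did not move alike: the middle changed by -2.99 points after CF Im25 siRNA and by 20.3 after CF Im68 siRNA, and the last by -24.7 and -46.4. The minus-strand unit of chromosome 17 at 80202242, 80200574 and 80200543 held 14.2%, 15.4%, 41.5%, 13.1%, 57.4% and 87.2% at its first site, and the last site 31 nt after the middle fell by 26.2 points after CF Im25 siRNA and fell by 25.5 points after CF Im68 siRNA. Here the middle never held more than 7.09%.

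**Figure D5:**
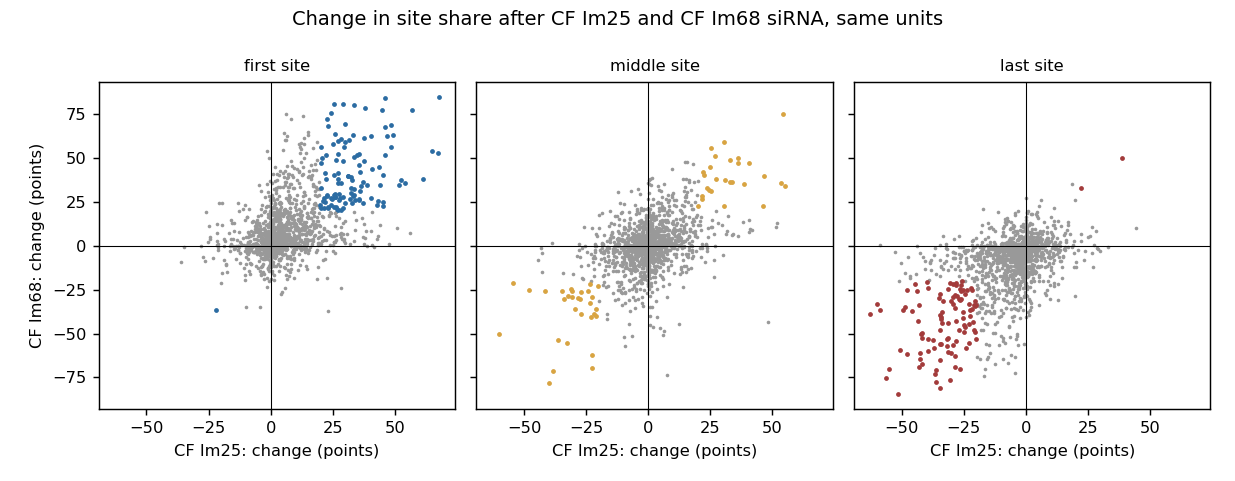
Change in share (percentage points) after CF Im25 siRNA (x axis) and CF Im68 siRNA (y axis) for the first, middle and last site of the 1553 units tested in both, with 1 point per unit. Coloured points were called in both comparisons, 112 first-site gains in both and 102 last-site losses in both among them, and the middle site has points in the upper right (27 gains in both) and lower left (30 losses in both).

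Units built from the control libraries alone, which no knockdown could enter through its own sites, gave 287 first-site gains for CF Im25 siRNA and 308 for CF Im68. Middle-site gains numbered 77 and 76 there, against 100 and 118 in the main units. That is another set of units, and its number tested and the share over all units are not given. These counts therefore cannot be read as rates. In units whose 3 sites each held 5% or more of the reads, first-site gains numbered 252 and 274. At the depth of the smallest library the CF Im25 first-site gains fell from 277 to 178. Where a unit had at least 100 reads in both libraries, first-site gains numbered 169 for CF Im25 siRNA and 186 for CF Im68. The number tested and the share over all units are not given for these settings either. A lower count there is therefore not a lower rate.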

How the data were processed

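The deposited values are counts, left unscaled by the authors, of the read 3' ends at every position of either strand, with 1 file per library. Builds hg19 and GRCh37 are named in the submitters' processing notes. Which aligner and filters were used, and whether duplicates or internal priming were dealt with, is not given in the sources used here. Intervals and limits therefore cover counting error only, because copies made by PCR are not independent molecules.

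Sites were called once on the 6 libraries, each scaled to CPM and pooled at equal weight, within 25 nt of the highest position, at a mean of at least 1 CPM, and joined at gaps of up to 5000 nt. This left 49695 nuclear sites in 28114 units. Shares and calls were computed from the counts with Python 3.11.15, numpy 2.4.6, pandas 2.3.3, scipy 1.17.1 and numba 0.67.0, and figures were drawn with matplotlib 3.10.9. The scripts were tested on simulated data. Site levels and total reads were scaled to the reads of a library in nuclear units. Each group held 1 library, so a call is a rule of size (20 points, 50 reads, 95% Newcombe interval) with no p-value. Named units had at least 100 reads in both libraries. They were, per knockdown, the called units with the largest first-site (4), middle-site (4) and last-site (3) rises and the largest middle-site falls (3). For CF Im25 and CF Im59 siRNA they also had to change by 10 points or more in the same direction against no siRNA. A further 3 were the shared first-site gains with most reads. Not all are described. A search for poly(A) signals and UGUA motifs was planned only for a genome of the build of the files and was not run.

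Members, comparisons and lists were chosen with earlier results of these data known. The alternatives were stricter site levels, windows, gaps and read minimums, sites called on controls alone, a minimum site share, thinning to 5351980 reads, another control library, and 4 added after seeing the data: both gaps of at least 100 nt, no site with 90% or more of its reads at 1 nucleotide, scaling of total reads by the median of ratios, and the spacing counts in units of the controls alone.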

Additional observations from a re-analysis of the deposited data

How the results depend on the processing

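No paired analysis was possible because each group held 1 library. Of 125 counts recomputed, 83 stayed within 1.5 times the reported one and 42 did not. In each sentence the counts are gains unless said otherwise. They are given without the number tested or the share over all units, so they are not rates. With a site minimum of 2 CPM, CF Im25 last-site gains were 18, CF Im59 first and middle gains 19 and 16, and no siRNA first and middle gains 10 and 4. With ends joined within 10 nt, CF Im68 first gains were 205 and CF Im59 first gains 22, and with gaps of up to 2000 nt last gains were 26 (CF Im25) and 61 (CF Im59). Sites called on controls alone gave 76 CF Im68 middle gains. A minimum of 100 reads, which tests fewer units, gave first, middle and last gains of 169, 57 and 25 (CF Im25), 186, 77 and 4 (CF Im68), 14, 11 and 53 (CF Im59) and 7, 5 and 23 (no siRNA). Thinning to 5351980 reads gave first gains of 178 (CF Im25), 16 (CF Im59) and 10 (no siRNA) and 9 middle gains for no siRNA. Another control gave 608, 390 and 171 gains for CF Im68 (alkaline scrambled siRNA) and 21, 18 and 33 for CF Im59 (no siRNA). Of the alternatives added after seeing the data, gaps of at least 100 nt gave 12 first gains for no siRNA. Leaving out units with a site that had 90% or more of its reads at 1 nucleotide gave 57 middle and 21 last gains (CF Im25), 7 last gains (CF Im68), 19, 15 and 58 (CF Im59) and 10, 9 and 27 (no siRNA). Beyond fewer units or reads tested, the cause was not tested. A minimum share of 5% per site kept all 12 gain counts within 1.5 times, and the median of ratios kept all 8 counts of total reads. No named change reversed in any of the 10 settings in which it could be recomputed, but most settings could not reverse one. Among the named units, stricter limits on reads, CPM, gaps, site share or reads at 1 nucleotide only left units out, with the counts of the others unchanged. In the whole set, the limits of 2 CPM and 2000 nt rebuilt the units, so larger units could enter as three-site ones. Named CF Im25 and CF Im59 changes were chosen for the same direction against no siRNA, their other control. Of 42 named changes, 10 fell under 20 points against another control, 9 of them for CF Im59 and 1 for CF Im25 siRNA, and 1 after thinning.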
